A study of Gallus gallus with 8 samples.

Results

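Whole blood of chickens was profiled on 4 arrays, which are 4 of the 8 samples of the study, and the account below ranks the genes that gave the brightest signal in it. The birds were 4 male broilers aged 9 weeks, fed a conventional diet and given no treatment. Each bird gave a whole blood sample, in which red cells, white cells and thrombocytes stay together, and a sample of peripheral blood mononuclear cells (PBMC) cut from the same blood on a density gradient. The members were chosen by their label alone, and PBMC served only as a second sample of each bird, never as a contrast. Total RNA was taken with TRIzol, 150 ng of it was labelled with the dye Cy3, and each sample was hybridised to its own Agilent array with 60539 distinct probes.

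Chicken red cells keep their nucleus. They make up most of the cells of blood, so RNA from whole blood holds the last transcripts of red cell formation, globins above all, beside those of lymphocytes, monocytes, heterophils (the avian counterpart of neutrophils) and thrombocytes (nucleated cells with the part of platelets). The chromatin of these red cells is tightly packed with a linker histone of its own, H5, and the cells still carry ribosomes, proteasomes and heat shock proteins. They also bear class I molecules of the major histocompatibility complex (MHC) and the B-G proteins, a butyrophilin-like family of the chicken MHC.

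A level here is the log2 of the background-subtracted spot signal minus the 75th percentile of its array, so that 75% of the probes lie below 0 and each unit doubles the signal. The 75th percentiles lay between 663.4 and 772.8 signal units, 64.47% to 70.89% of the probes were well above background, no spot was saturated, and the arrays correlated with each other at 0.978 to 0.985 over probes. Of the probes, 17529 (29.0%) could be tied to 7065 gene names, and 33 of the 50 brightest probes stayed without a name, so the ranking covers the named part of the array. A gene stands for its brightest probe with a value on all 4 arrays, and 5183 of 7062 named genes with such a probe (73.4%) were well above background on all 4. The order is of brightness: probe sequence and labelling also set a signal, so neighbouring ranks do not measure which transcript was more numerous. In blood, fewer cells of a type and less RNA per cell cannot be told apart.

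The 5 genes taken as markers of blood rich in red cells, HBBA, HBAD, HBA1, HSPA2 and CA2, were among the 30 brightest named genes. They came with a rule chosen with earlier results of these data known, so their place is a description. HBBA, the adult beta globin, ranked highest, with levels of 9.39, 9.44, 9.48 and 9.64 in birds 1 to 4 (9.49 ± 0.11, SD, n = 4). HBAD, the alpha D globin, read 9.23, 9.38, 9.57 and 9.26 (9.36 ± 0.16) and ranked 3. HBA1, the alpha A globin, read 8.99, 8.96, 9.09 and 9.21 (9.06 ± 0.11) and ranked 4. These ranges overlap for HBBA and HBAD, while every HBA1 value lay below every HBBA value. HSPA2, a member of the HSP70 chaperone family, ranked 5 at 8.92, 8.84, 8.65 and 8.94 (8.84 ± 0.13), lowest in bird 3. That rank rests on 1 probe, since its other 7 probes read 3.96 to 7.80, and with the mean of its probes, 6.75, it was not among the 30. CA2, carbonic anhydrase 2, the enzyme that lets red cells carry carbon dioxide as bicarbonate, ranked 27 and varied most of the 30, at 8.15, 7.44, 7.88 and 7.05 (7.63 ± 0.49).

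Globins were among the brightest named genes but did not hold most of the summed signal of those genes. Of the 7 globin genes with a probe, 5 were among the 30 leading genes, and together the list held 5.41%, 5.89%, 6.11% and 6.24% of the summed signal of the named genes in birds 1 to 4 (5.91 ± 0.37%). With the mean of all detected probes of a gene in place of the brightest, that share was 8.92%. Both shares leave out unnamed probes and are of brightness, so they do not measure how much globin RNA the blood held. HBE at 8.83 ± 0.05 and HBBR at 7.96 ± 0.05, names of the epsilon and rho globins that are known from embryonic red cells, were both bright and nearly even over the birds. HBE1 was lower, at 2.27, 4.24, 4.24 and 3.95, with bird 1 below the other birds, and HBZ was the dimmest at -2.19 ± 0.28. The coding sequences of beta-like globins are much alike, and whether the HBE and HBBR probes also bound adult beta globin was not tested. The HBE1 level rests on 1 probe. Another 5 globin probes carried the gene number of HBE1 but the symbol HBG2, a name that was matched here to HBBA. They were left out of the ranking. Of these, 2 were as bright as HBBA, at 9.45 and 9.40, and the remaining ones read 8.67, 8.53 and 0.44. Whether they read HBE1 or HBBA was not tested, so the level of HBE1 and its low value in bird 1 are not settled. For HBBA and HBA1 the other probes of the gene lay close to the brightest, from 8.92 to 9.33 and from 8.92 to 9.05. The only other HBAD probe was lower, at 8.345, and was highest in bird 4 where the brightest was highest in bird 3. The place of HBAD beside HBBA thus rests on its brightest probe.

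**Figure D1:**
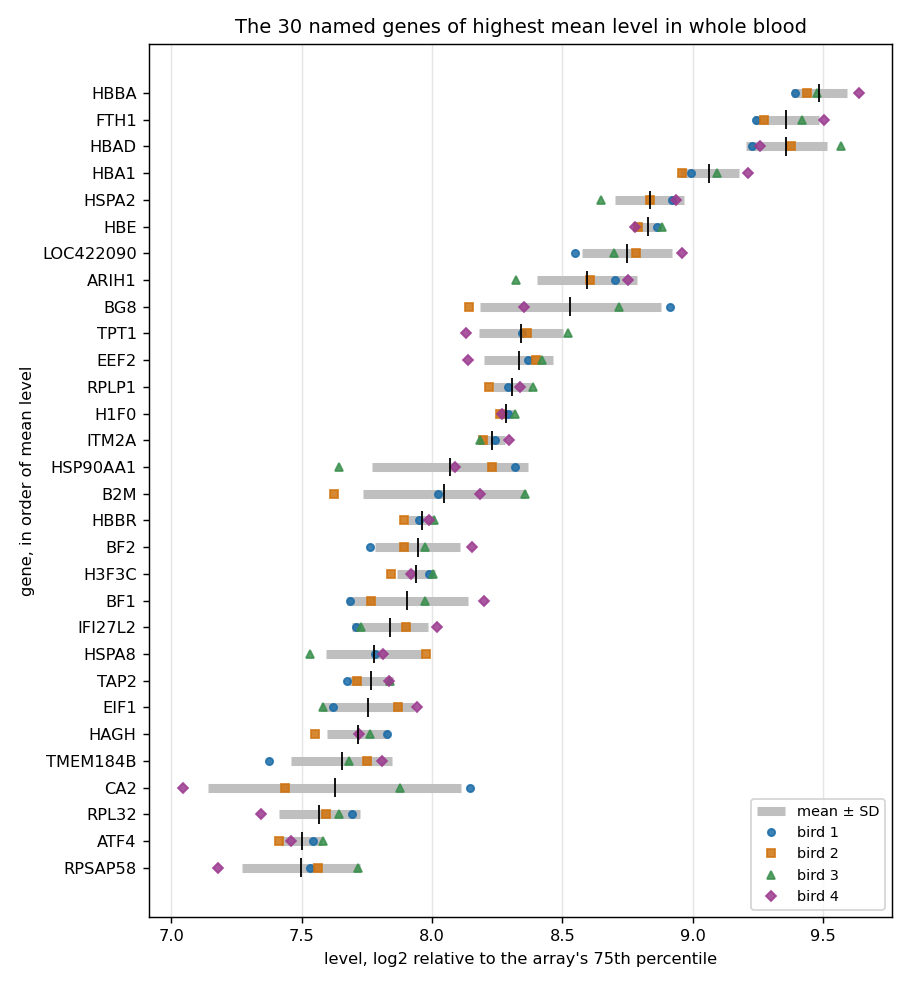
Levels of the 30 named genes of highest mean level in whole blood, on an axis in log2 units above the array's 75th percentile. Symbols are the 4 birds, the black tick is the mean and the grey bar is the mean ± SD, and CA2, BG8, B2M and HSP90AA1 show the widest bars.

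FTH1, the heavy chain of ferritin, which stores iron, stood between the globins at 9.24, 9.27, 9.42 and 9.50 (9.36 ± 0.12), and its other 3 probes read 8.86 to 9.00. The rest of the haem and iron list was far dimmer: GLRX5, needed for iron-sulphur clusters, was at 5.58 ± 0.20, the iron-regulatory protein IREB2 at 5.36 ± 0.18, and FECH, the enzyme that puts iron into haem, at 4.13 ± 0.17. The transferrin receptor TFRC read 3.63 ± 0.15. Of the 12 members with a probe 11 were detected, 5 of them in the brightest 10% of named genes, a group that starts at 4.06. The median level of the list was 3.63, beside 0.26 for all named genes detected.

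Among genes of the red cell surface and its enzymes, only CA2 was among the leading 30. The ammonia and Rh-complex protein RHAG was at 4.31 ± 0.41, BPGM, which makes 2,3-bisphosphoglycerate in mammals, at 3.96 ± 0.44, and the Rh protein RHCE at 3.89 ± 0.32. The 13 detected members had a median of 2.67, and only CA2 and RHAG were in the brightest 10%. EPB41 and TMOD1, of the membrane skeleton, read 3.78 ± 0.10 and -3.54 ± 0.29, and the water channel AQP1 was above background on 0 of 4 arrays. Of 15 transcription factors listed for the red lineage 10 had a probe here, and those 10 were detected; GATA1, KLF1, NFE2, ZFPM1 and FOXO3 were not matched to a probe and are not analysed here. Among the 10, NFE2L2 (6.01 ± 0.34), LMO2 (4.95 ± 0.06), MAFG (4.73 ± 0.19) and GATA2 (3.73 ± 0.12) were the brightest and MYB, a factor of immature blood cells, the dimmest at -4.22 ± 0.50.

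Among 6 histone genes 4 were in the brightest 10%, and these were even over the birds. H1F0, the entry that the reference table also lists under the name H5, read 8.29, 8.26, 8.32 and 8.27, and its SD of 0.02 was the smallest among the 200 brightest genes. This rests on 1 probe, since the other 2 probes of the gene read 3.63 and -3.25. H3F3C, matched through the older name H3F3A and so a histone H3.3 entry, was at 7.94 ± 0.07 and H3F3B at 6.41 ± 0.07. H2AFZ was at 4.32 ± 0.06, while H2AFJ (3.56 ± 0.34) and H2AFY (-0.13 ± 0.28) varied more than the median gene. The 6 histone genes had a median SD of 0.07, beside 0.24 for all named genes detected.

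Genes of protein synthesis made up a large block of the signal of the named genes. All 40 ribosomal protein genes with a probe were detected and 38 of them (95%) were in the brightest 10%, with RPLP1 (8.31 ± 0.07), RPL32 (7.57 ± 0.16) and RPSAP58, an entry that also goes by RPSA (7.50 ± 0.23), in the leading 30. They held 8.66 ± 0.55% of the summed signal. Of 15 detected members of the translation factor list 12 were in the brightest 10%. The brightest was TPT1 (8.34 ± 0.16), the translationally controlled tumour protein, which is on the list but is not an initiation or elongation factor. Next came EEF2, the elongation factor that moves the ribosome along (8.33 ± 0.13), EIF1, a factor of start codon selection (7.75 ± 0.18), and PABPC1, which binds poly(A) tails (7.46 ± 0.22). Bird 4 was the lowest for 23 of the 40 ribosomal and 12 of the 15 translation genes, where it was the lowest for 1556 of all 5183 (30%).

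The genes of the MHC and antigen presentation had a median level of 6.75 and held 2.85 ± 0.36% of the summed signal. B2M, the light chain of class I, read 8.02, 7.62, 8.36 and 8.18 (8.05 ± 0.31), with bird 2 the lowest on each of its 3 probes. The heavy chain genes BF2 and BF1 were at 7.94 ± 0.16 and 7.91 ± 0.23, both lowest in bird 1 and highest in bird 4 on their brightest probes. The low end changed with the probe. On the other BF2 probe bird 2 was the lowest, at 6.27 beside 6.33 in bird 1. Some other BF1 probes had bird 2 lowest too, as at 6.68, 6.64, 6.92 and 7.09, and another had bird 3 highest, at 5.99. TAP2, a subunit of the peptide transporter, was at 7.77 ± 0.08 and TAPBP, tapasin, at 7.29 ± 0.03, the second smallest spread among the 200 brightest genes. Its partner TAP1 was dimmer, at 2.79 ± 0.20. CD74, the invariant chain of class II, was at 6.75 ± 0.27, while the class II beta chains BLB1 and BLB2 read 2.72 ± 0.49 and 2.04 ± 0.50. Bird 1 was the lowest for 8 and bird 4 the highest for 8 of 11 members, beside 27.9% and 30.6% of all named genes. The same ends were seen in the 5 spike-in probes with a level of at least 0, synthetic RNAs meant to be equal in every sample: bird 1 was the lowest and bird 4 the highest on each, for example at 4.60, 4.82, 4.89 and 5.33. The part of that shift in this order, and in the like order of the glycolysis and monocyte genes below, was not tested.

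The B-G genes were bright and uneven. BG8 read 8.91, 8.14, 8.72 and 8.35 (8.53 ± 0.35) and V-BG 7.14, 5.09, 6.50 and 5.50 (6.06 ± 0.93), both lowest in bird 2. V-BG had the largest SD among the 200 brightest genes. Probes of BG8 differed sharply: on 2 of them bird 2 was not above background, at -7.95 and -6.75, where birds 1, 3 and 4 read 4.84, 5.32 and 3.84 on the one and 3.76, 4.49 and 2.10 on the other. On a further probe bird 2 read 0.79, where birds 1, 3 and 4 read 2.78 to 4.75. Another read -2.52 in bird 2, beside 1.52 and 2.98 in birds 1 and 4, with no value in bird 3. The 2 brightest other probes of the gene read 7.92 and 7.37 in bird 2, so a gap of that size was not seen on every probe. Binding of other B-G genes by the bright probes was not tested. BG1, with 4 probes above a level of 4, was brightest in bird 1 on each of the 4. The B-G family has many similar members, and differences of sequence between birds were not measured here.

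Chaperones gave 3 of the leading 30 and 11 of their 24 members were in the brightest 10%. HSP90AA1 read 8.32, 8.23, 7.64 and 8.09 (8.07 ± 0.30), HSPA8 7.78, 7.98, 7.53 and 7.81 (7.78 ± 0.18), and DNAJA1, a co-chaperone of HSP70, 7.58, 7.72, 7.13 and 7.55 (7.49 ± 0.26). In each of these bird 3 was the lowest. TCP1, a subunit of the chaperonin that folds actin and tubulin, read 6.20, 6.26, 5.04 and 5.70, HSPA5, the endoplasmic reticulum member of the HSP70 family, 4.34, 4.32, 3.59 and 4.03, and HSPH1 2.99, 2.68, 2.24 and 2.67. All 8 probes of HSPA2 and all 3 of HSP90AA1 had bird 3 lowest. Bird 3 stood a median of 0.34 below the mean of the other birds over the 11 bright chaperones, lower in 10 of the 11, and 0.24 below over all 24, lower in 17. HSP90B1, of the endoplasmic reticulum, was highest in bird 3 at 3.93, and HSPE1, HSPD1 and HSPA9, of the mitochondria, were lowest in bird 4. Over the 200 brightest genes bird 3 stood a median of 0.07 above the other birds, and it was lower in 2595 of all 5183 named genes detected. The list took 3.58%, 3.85%, 2.77% and 3.52% of the summed signal in birds 1 to 4. Bird 3 was the lowest for 11 of the 24 chaperones in whole blood, beside 1194 of all 5183 named genes (23.0%). In PBMC it was the lowest for 3 of the 24, HSPA2 among them at 4.37, and bird 2 for 16. Over 5181 named genes in PBMC bird 3 was the lowest for 1357 and bird 2 for 1499. The order of the birds in this list was taken up after its values were seen.

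**Figure D2:**
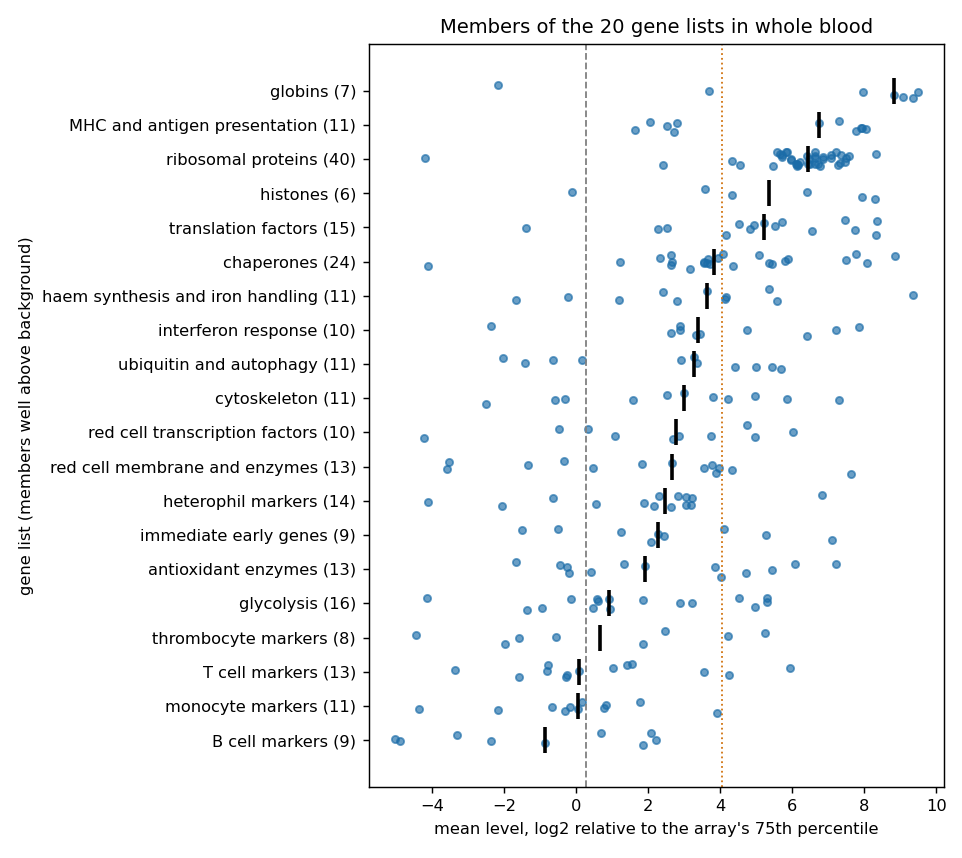
Mean levels of the detected members of each of the 20 gene lists in whole blood, in log2 units above the array's 75th percentile, with the number of members in brackets. Points are genes, black ticks are list medians, the dashed line is the median of all named genes (0.26) and the dotted line the start of the brightest 10% (4.06); globins, MHC and ribosomal genes lie farthest to the right and B cell markers farthest to the left.

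Other genes of the leading 30 came from no list. LOC422090, an entry without a descriptive name, was at 8.75 ± 0.17, with 6 probes of which the dimmest read 7.70. ARIH1, a ubiquitin ligase, was at 8.59 ± 0.19 on its brightest probe, but its 8 other probes ran from -5.83 to 5.56, so that rank belongs to 1 probe. ITM2A was at 8.23 ± 0.05, the stress-response transcription factor ATF4 at 7.50 ± 0.08, TMEM184B at 7.65 ± 0.19, and HAGH, which clears the glycolytic by-product methylglyoxal with glutathione, at 7.72 ± 0.12. From the interferon list IFI27L2 was at 7.84 ± 0.15, IFI6 at 7.21 ± 0.27 and IRF1 at 6.41 ± 0.20, while the antiviral MX1 was dim at -2.36 ± 0.88. For 27 of the 30 leading genes another probe was detected, and for 18 it lay within 1 unit of the brightest. The choice of 30 has no natural edge, since the gene at rank 30 read 7.50 and the one at rank 31, DNAJA1, 7.49.

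The signal of the named genes was spread over many of them. The 10 brightest named genes held 11.3 ± 0.53% of the summed signal (10.68% to 11.95%), the 30 brightest 22.1 ± 0.82% and the 100 brightest 40.6 ± 0.92%, and 168 genes (3.2%) held 50% of it. HBBA was 599.3-fold above the median gene but only 3.97-fold above rank 30.

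Further down, glycolysis had 4 of 16 detected members in the brightest 10%, PGAM1 (5.30 ± 0.19), GAPDH (5.29 ± 0.24), ALDOC (4.97 ± 0.27) and LDHA (4.52 ± 0.18), and the median was 0.91. Bird 4 was the highest for 12 and bird 1 the lowest for 10 of 16, beside 30.6% and 27.9% of all named genes. Antioxidant genes had a median of 1.91, led by thioredoxin TXN (7.22 ± 0.08), GCLC, which makes the precursor of glutathione (6.06 ± 0.15), and the superoxide dismutases SOD1 (5.43 ± 0.13) and SOD2 (4.71 ± 0.18). Genes of ubiquitin transfer and autophagy, processes by which maturing red cells lose organelles, had a median of 3.26, with UBE2H (5.69 ± 0.12), MAP1LC3B (5.44 ± 0.09) and BNIP3L (4.98 ± 0.11) in front. Of the immediate early genes, which respond within minutes to handling and stimulation, FOS read 7.21, 7.19, 6.94 and 7.01, BTG1 5.27 ± 0.08 and JUN 4.08, 4.30, 3.41 and 4.64, with JUN lowest in bird 3. Actin, ACTB, was at 7.30 ± 0.15 and vimentin, VIM, at 5.84 ± 0.30.

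The lists of T cell, B cell, thrombocyte and monocyte markers had lower medians than these, though single members were brighter. The heterophil markers, taken up further below, had a median of 2.465. CD3D and CD3E, chains of the T cell receptor complex, were at 5.94 ± 0.20 and 4.24 ± 0.18, yet the 13 detected T cell markers had a median of 0.06 and CD4 and CD8A read -0.81 ± 0.47 and 0.06 ± 0.11. B cell markers were the dimmest list, with a median of -0.87, CD79B leading at 2.22 ± 0.42, PAX5 at -3.31 ± 0.56 and JCHAIN above background on 1 of 4 arrays. Thrombocyte markers had a median of 0.65, led by the integrin ITGB3 (5.24 ± 0.21) and tubulin TUBB1 (4.21 ± 0.16), and THBS1 was at -4.45 ± 0.48. Monocyte markers had a median of 0.04, led by the protease CTSS (3.92 ± 0.47), while the defining MARCO and CD14 were above background on 0 of 4 arrays. CSF1R, ITGA2B and GP9 were not matched to a probe and are not analysed here.

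The monocyte markers mostly had their lowest value in the same bird, although 1 of the 11, VCAN, passed the test of birds below. Bird 1 was the lowest for 9 of the 11 detected members and bird 4 the highest for 9, where over all 5183 named genes bird 1 was the lowest for 1447 (27.9%) and bird 4 the highest for 1585 (30.6%). CTSS read 3.36, 3.78, 4.03 and 4.50, and LY86, which helps the toll-like receptor RP105 to the surface, 1.40, 1.65, 1.61 and 2.44. Their summed signal made up 0.042%, 0.058%, 0.062% and 0.090% of that of the named genes. In PBMC bird 1 was again the lowest for 10 of 11, and for 10 of the 11 (90.9%) the same bird was lowest in both samples, beside 36.7% over 5181 named genes. The highest bird was not the same: bird 3 was highest in PBMC for 11 of 11. LYZ, lysozyme, went the other way in whole blood, at 0.68 in bird 1 and -0.26, -0.01 and -0.24 in the others.

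Heterophil markers split into opposite patterns in bird 4. The granule peptides AvBD1 (3.57, 3.30, 3.58 and 1.76) and AvBD7 (2.82, 2.31, 2.56 and 0.96), both beta-defensins, and the cathelicidin CATH2 (2.98, 2.41, 2.80 and 1.02) were lowest in that bird. The same held for DEFB4A, an entry that also goes by AVBD2 (3.37, 3.12, 3.18 and 1.62), for LECT2, matched through the name MIM1 of a myeloid granule protein (3.16, 2.94, 3.12 and 1.30), and for AvBD6, LYG2 and CATH1. Over these 8 of 14 members bird 4 stood 0.30 to 2.21 below the mean of the other birds, with a median of 1.71. By contrast EXFABP, a siderophore-binding lipocalin (6.64, 6.45, 6.85 and 7.35), the gelatinase MMP9 (1.13, 1.75, 1.75 and 2.86) and CSF3R, the receptor for granulocyte colony-stimulating factor (0.14, 0.10, 0.38 and 1.59), were highest in bird 4. So were RSFR and S100A12, which was matched through the name S100A9. These 5 stood 0.70 to 1.39 above the mean of the other birds, where the 5 spike-in probes stood 0.45 to 0.57 above; the part of that shift in these values was not tested.

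The order returned in part in PBMC, a fraction that density separation is meant to clear of heterophils. All 8 members that were lowest in bird 4 in whole blood were lowest in bird 4 in PBMC too, and for 12 of the 14 markers (85.7%) the lowest bird was the same in both, beside the 36.7% over all named genes. For 0 of the 14 was the highest bird the same. The split of the heterophil genes was read off these values and describes these birds only.

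**Figure D3:**
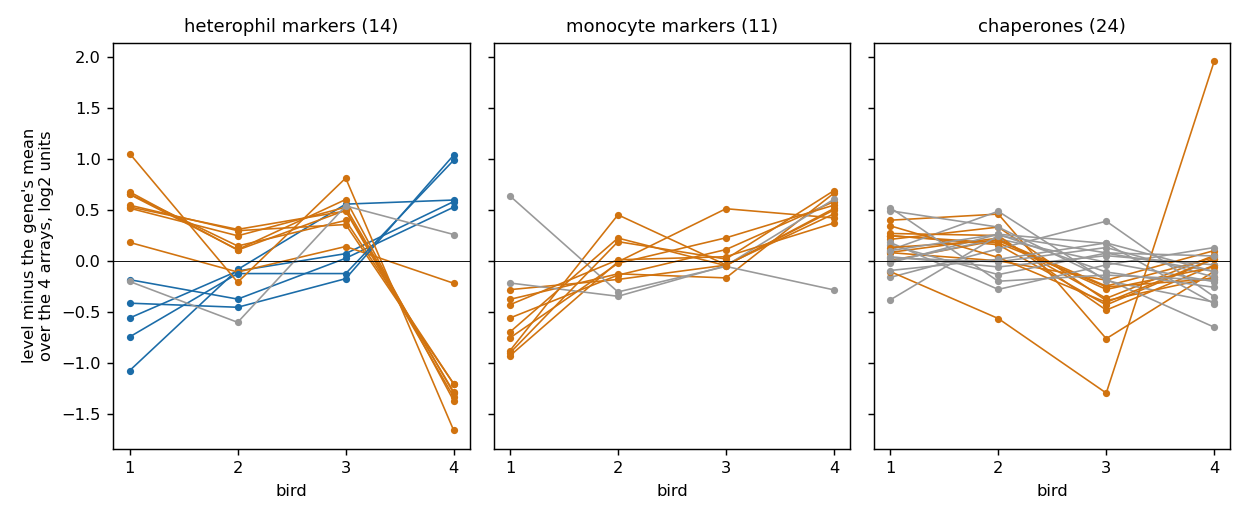
Level of each detected heterophil, monocyte and chaperone gene minus its own mean over the 4 whole blood arrays, in log2 units, by bird. In the left panel orange genes are lowest and blue genes highest in bird 4; in the middle panel orange genes are lowest in bird 1 (9 of 11); in the right panel orange genes are lowest in bird 3 (11 of 24), and the point near 2 in bird 4 is HSPB9.

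Whether birds differ was tested with limma's moderated F test over all 8 arrays, with sample type and bird as terms and Benjamini-Hochberg adjustment over all 30701 features. It called 922 features, 3% of those tested, and 127 of the 5183 named genes (2.45%). At an unadjusted p under 0.05 limma's test picked 0 of the 30 leading genes, beside 5698 of the 30701 features. None of the 30 was called after adjustment (0 of 30), nor any of the 200 brightest. This does not show that birds have equal levels of them, because the test asks for a difference shared by whole blood and PBMC. Of 260 list members detected, 4 (1.54%) were called, a share below that background: MX1 (limma's adjusted p = 0.0257), the monocyte proteoglycan gene VCAN (0.0308), PAX5, the transcription factor of B cells (0.0351), and MYB (0.0402). VCAN read -0.78, 0.14, 0.66 and 0.57 in whole blood and 2.40, 3.40, 4.42 and 3.60 in PBMC, with bird 1 lowest and bird 3 highest in both. MX1 read -2.93, -1.31, -1.98 and -3.23, highest in bird 2 in both kinds of sample. The 4 are named because the test called them. These calls were fragile. Testing without the filter on dim probes ended the call for all 4 genes. So did leaving out the whole blood of bird 1, 2 or 4, or the PBMC of bird 1 or 2, and leaving out the PBMC of bird 3 or 4 ended most of the calls. Each such fit keeps only the other sample of the bird. The granule peptides were not called, with adjusted p-values by limma of 0.0545 for AvBD7, 0.0549 for DEFB4A, 0.0611 for CATH2 and 0.0668 for AvBD1. They were picked out for their order in these same arrays, so these values do not test that order.

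By median, genes with a bright probe varied less than dim ones. The median SD over the 4 arrays was 0.239 for all 5183 named genes, 0.213 for the 2731 with a level of at least 0, 0.170 for the 200 brightest and 0.151 for the leading 30. Probes of the same gene also differed in SD. From the brightest to the dimmest probe it rose from 0.13 to 0.45 for HSPA2 and fell from 0.08 to 0.06 for ATF4. How far the spread goes with the probe and not the gene was not tested. Repeated spots of a probe on the same array had a median SD of 0.041 (208 probes with a level of at least 0), where the SD of these probes over arrays was 0.216. The 5 spike-in probes had an SD of 0.233 to 0.316 over the whole blood arrays. Of the leading 30, 26 had an SD below the spike-in median of 0.243, as had 1618 of the 2731 named genes with a level of at least 0 (59.2%), and CA2, BG8, B2M and HSP90AA1 had one above it.

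The steadiest of the 200 brightest genes, after H1F0 and TAPBP, were CIAPIN1, ITM2B, NDUFA2 (a subunit of respiratory complex I), COPS7A, HBE, HBBR, RPL13 and C11orf58, with SDs of 0.04 to 0.05. The least steady, after V-BG, were TCP1 (SD 0.57), the apoptosis inhibitor BIRC2 (0.50), CA2 (0.49), the esterase PON1 (0.46), LPIN2 (0.41), ACBD4 (0.39), EXFABP (0.39), EIF5B (0.37) and EIF3E (0.36). PON1 read 6.79, 6.09, 7.09 and 6.27 and BIRC2 7.05, 6.12, 6.96 and 6.16. On these probes, the brightest of each gene, both were higher in birds 1 and 3 than in birds 2 and 4. CA2 had that order too, on its brightest and its dimmest probe, while its remaining probe read 7.29, 7.25, 7.45 and 6.87.

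**Figure D4:**
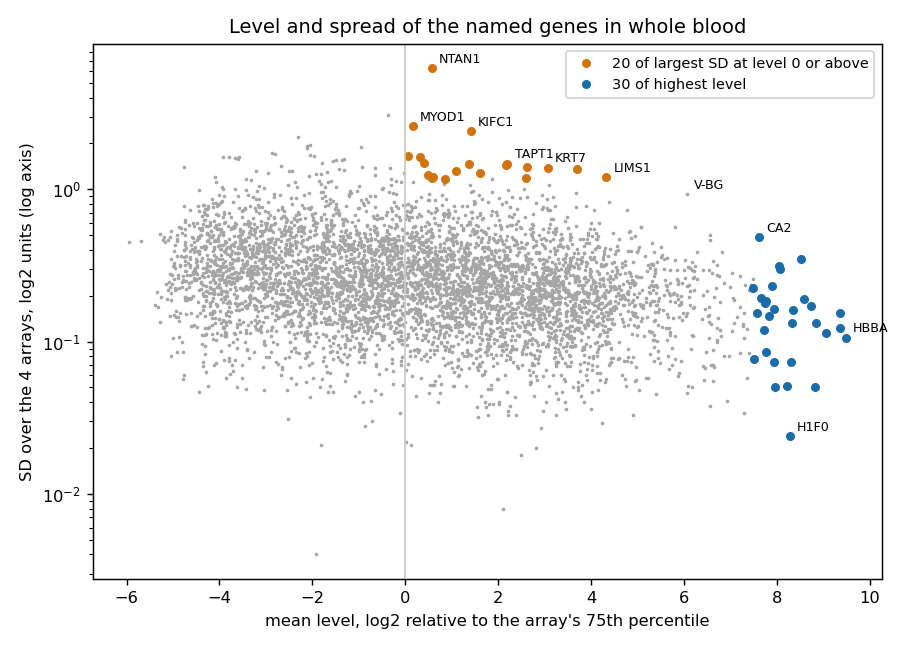
SD over the 4 whole blood arrays, on a log axis in log2 units, against mean level, in log2 units above the array's 75th percentile, for the named genes detected. Grey points are all genes, blue points the 30 of highest level and orange points the 20 of largest SD at a level of 0 or above; NTAN1 lies highest and H1F0 lowest among the named points.

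The 20 most variable genes with a level of at least 0 were picked by their SD over whole blood, so that spread is a description. Their SDs ran from 1.17 to 6.23, and the gene next in order had 1.16. NTAN1, which removes the amide from N-terminal asparagine, read 9.92 in bird 1 and -2.44, -2.44 and -2.75 in the other birds on its only probe. In bird 1 it would outrank HBBA, but its PBMC levels were -1.25, -1.13, -1.17 and -1.53, with no such gap. Its mean passed the minimum level of 0 through bird 1 alone. MYOD1, a transcription factor of skeletal muscle, read 0.19, -2.53, 3.66 and -0.65, and its 3 other probes had the same highest and lowest birds. Its mean was only 0.17, and it left the 20 when bird 3 was left out. KIFC1, a motor protein of the mitotic spindle, was lower in bird 4 than in the other birds by more than any of them differed among themselves, at 2.70, 2.56, 2.56 and -2.19. All 5 other probes of KIFC1 had bird 4 lowest, and so had its PBMC, at 1.42, 0.37, 1.54 and -1.20.

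Several of these genes showed the same split of the birds in PBMC. TAPT1 read 0.91, 3.68, 0.97 and 3.25 in whole blood and 0.55, 2.41, 0.41 and 2.41 in PBMC, with birds 2 and 4 the higher pair in both although the lowest bird was not the same. LY6E, a membrane-anchored protein induced by interferon, read 0.07, 3.14, 0.27 and 1.99, and in PBMC 2.53, 5.29, 2.39 and 3.83, with that pair again the higher. LIPG, endothelial lipase, had the mirror image, at 1.51, -0.81, 1.59 and -0.31, and 1.77, -0.04, 1.89 and 0.05 in PBMC. GBP, an interferon-induced GTPase, was lowest in bird 3 in both, at 4.71, 4.62, 1.77 and 3.68 and then 4.76, 4.47, 2.65 and 2.83. ACOT9, an acyl-CoA thioesterase, read 3.75, 1.77, 3.49 and 1.40, high in birds 1 and 3 in PBMC too. The size of that split rests on 1 probe. The 4 other probes of ACOT9 had SDs of 0.54 to 0.66, with bird 2 nearer to birds 1 and 3, as at 1.47, 1.11, 1.33 and 0.27. LIMS1, an adaptor at integrin contacts and the brightest of the 20, read 4.89, 5.26, 4.59 and 2.59, and in PBMC too it was highest in bird 2 and lowest in bird 4, at 5.29, 5.90, 4.54 and 4.53.

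For other genes the bird at one or both ends was not the same in PBMC. HSPB9, a small heat shock protein, was highest in bird 4 at 2.53, 2.07, 1.34 and 4.59 on each of its 3 probes, but in PBMC bird 4 was the lowest at -0.76. KRT7, an epithelial keratin, read 4.48, 1.17, 3.23 and 3.40, with the same highest and lowest bird on its 6 other probes, while its PBMC levels were between -4.66 and -3.23, lowest in bird 2 as well. ABCG2, an efflux transporter known to carry porphyrins, read 2.29, -1.16, 1.00 and -0.82, and a second probe 2.15, -1.13, 1.03 and -0.90. UBXN2B, ANKH, AKAP9, TPM3, ANKRD40, C21orf91, BAIAP2L1 and RDH5 complete the 20.

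Over the 20, the same bird was highest in whole blood and PBMC for 10 (50%) and lowest for 11 (55%), beside 36.6% and 34.4% of the 2729 named genes at a level of at least 0 with PBMC values. Both ends were the same for 5 (25%, against 14.4%). The 20 were picked for their large SDs in whole blood, so their shares and those of all genes are not a like comparison. For 15 of the 20 another probe of the gene was above background on at least 1 array, and 32 of these 37 probes had both the same highest and the same lowest bird as the probe chosen.

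Birds 2 and 4 lay in one row of the slide and birds 1 and 3 in the other, so the row and the pair of birds cannot be told apart. The rows did not overlap for 16 of the 20 variable genes (80%), and for 1427 of the 2731 named genes with a level of at least 0 (52.3%). A gap of more than 0.1, a limit chosen after seeing the data, was then asked for. The rows stood apart by it for 14 of the 20 (70%), among them TAPT1, LY6E, LIPG and ACOT9, and for 942 of the 2731 (34.5%). NTAN1 and KIFC1 were the 2 that this limit took away. The 20 were picked for SDs of at least 1.17, where the median SD of the 2731 was 0.213. A fixed gap is easier for such genes to pass, so these 2 shares are not a like comparison. Nor are the 80% and the 52.3%, which come from the same unlike sets. A limma test of the rows within whole blood called 16 of 30701 features (0.0521%), and 4054 were at an unadjusted p under 0.05. It set only birds 2 and 4 against birds 1 and 3, so few calls do not show that the rows are alike. PBMC of the same birds lay in the same rows, so the order that returned in PBMC does not separate bird from row either. KIFC1, NTAN1, GBP and HSPB9 had their extreme in 1 bird and not in a pair.

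**Figure D5:**
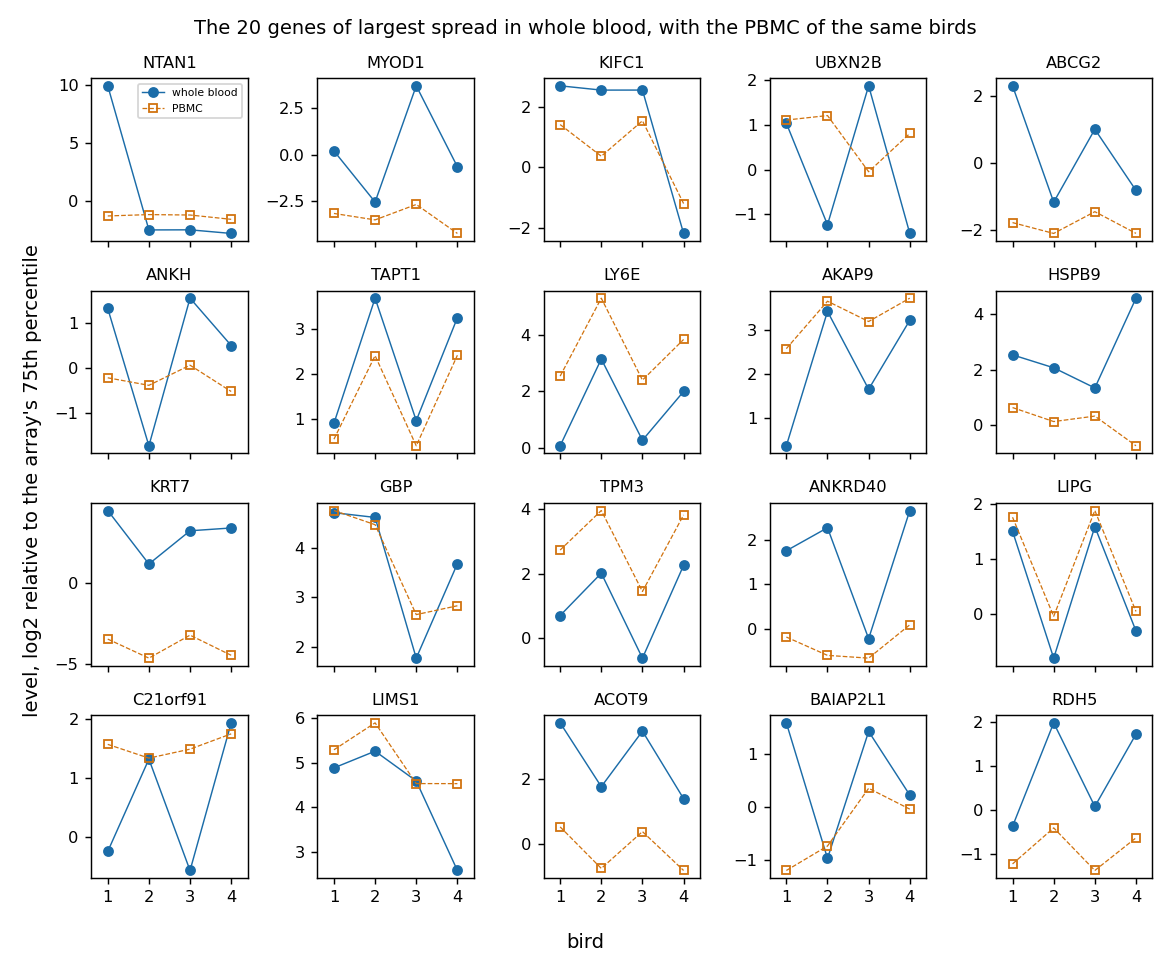
Levels of the 20 genes of largest spread in whole blood, in log2 units above the array's 75th percentile, by bird; filled blue points are whole blood and open orange squares PBMC of the same bird, with a separate vertical scale for each gene. NTAN1 stands out in bird 1 of whole blood only, KIFC1 is lowest in bird 4 in both, and TAPT1, LY6E and LIPG zigzag alike in both.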

How the data were processed

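The deposited files are the scanner output of 8 one-colour Agilent arrays. Their spot intensity values were background-subtracted and detrended within each array and not normalised between arrays, per the file headers, by Agilent Feature Extraction 10.7.3.1 (10.7.1.1 per the submitters' processing notes). The authors' deposited table holds log2 values of the median pixel signal of each spot minus 1 constant per array and served as an alternative. Array number limits the precision.

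From these, levels were computed as log2 of the processed signal minus the 75th percentile of the array over non-control probes, without spots flagged as outliers, averaging spots of a probe. A probe counted as detected when at least 0.5 of its spots were well above background. Probes were named by RefSeq accession, gene number or symbol through RefSeq's gene table (GRCg7b; the array header names another build, so no coordinates are given), and 110 with conflicting names were left unnamed. Tests used limma 3.58.1 in R 4.3.3, threshold 0.05. They were also run on simulated data with less spread than these arrays, which does not show how they perform here. The labels and the study's design description give 4 birds, so replicates are birds. Whole blood and PBMC were matched to a bird by the number in the sample titles, and that match was not tested.

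The genes named are the 30 of highest mean level, 5 markers, the 20 of largest SD at a level of at least 0, the 10 steadiest and 10 least steady of the 200 brightest, up to 4 leading members of each of 20 gene lists, and defining cell type markers. Other list members were named after their values were seen. The rule, members and lists were chosen with earlier results of these data known. Alternatives were normexp background correction (offset 50), the authors' values, quantile normalisation, the mean of all probes of a gene, outlier spots kept, no filter on dim probes, and each array left out.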

Additional observations from a re-analysis of the deposited data

Results flagged for a closer look

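In 8 of 167 genes examined 1 whole blood array lay far from the other 3, by the gap to its nearest neighbour over the whole range of the 4 arrays; chance alone sets apart about 1 in 20 such groups, and none of the 20 list shares (0 of 20) was set apart. NTAN1 (0.975) was high in bird 1, and KIFC1 (0.971) was low in bird 4 on all its probes. The heterophil genes AvBD1 (0.842), DEFB4A (0.859) and LECT2 (0.883) were low in bird 4, where the other granule peptides were lowest too. CD4 (0.869) was low in bird 3, at -1.52 against -0.65 to -0.52 in the others. PAX5 (0.831) was high in bird 1, at -2.49 against -3.68 to -3.48, and highest in bird 1 in PBMC as well, at 0.37. CCT8 (0.911), a chaperonin subunit, was high in bird 1, at 3.16 against 2.44 to 2.50. The causes were not tested.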

How the results depend on the processing

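HBBA ranked highest under every alternative run, and 28 to 30 of the 30 leading genes were kept except with the mean of all detected probes of a gene, which kept 19; HSPA2 (6.75), ARIH1 (3.56) and H1F0 (2.89) were among those that left. With that mean the 10 leading genes held 14.9% of the summed signal and the globins 8.92%. Of the 20 most variable genes 12 were kept with the authors' values and 14 to 20 otherwise; NTAN1 left the list with the authors' values (mean -0.11) and without bird 1 (mean -2.54), where its mean lay below the minimum of 0. The count of features that differ between birds, 922, was 165 with no filter on dim probes and 321 with slide row in place of bird; leaving out 1 whole blood array gave 151 (bird 2) to 737 (bird 3), with 499 without bird 1 and 391 without bird 4, and leaving out 1 PBMC array 128 (bird 2) to 650 (bird 3), with 447 without bird 1 and 457 without bird 4. The count between slide rows, 16, was 46 with normexp, 43 with the authors' values, and 0 by limma with no filter (4032 at an unadjusted p under 0.05); leaving out 1 array gave 0 to 14, with 0 without bird 1, 2 or 4 (3180, 4082 and 2480 unadjusted). Calls of the bird test were otherwise those of the main setting in 1611 of 1664 gene and setting pairs, and 17 were gained and 36 lost. With the authors' values the gains included AvBD7 (limma's adjusted p = 0.0244), DEFB4A (0.0321), AvBD1 (0.0328) and CATH2 (0.0421). These granule peptides were picked out from the same arrays, so their gains do not test their order. PAX5 kept its call only with quantile normalisation (0.0297) and with outlier spots kept (0.0378). No paired analysis was possible because whole blood and PBMC were not compared and bird itself was the factor tested. Genes below a level of 0 were not ranked for spread. That cut was a choice and not a background limit, since detected genes below it were also well above background.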
